A study of Mus musculus with 93 samples.

Results

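The 8 genes described here encode enzymes of cholesterol synthesis: Hmgcs1, Mvd, Idi1, Fdps, Fdft1, Sqle, Lss and Cyp51. They were chosen by name, and all 8 are among the 24514 genes of the count table. Hcn4-GFP marks the first heart field (FHF), and the Ai9 reporter turned on by Tbx1-Cre gives an RFP label to the second heart field (SHF) lineage. In all 4 groups the cells carried Hcn4-GFP, Tbx1-Cre and Ai9, and each library was made from 10 sorted cells. The groups were GFP+ cells of mouse embryos (n = 5), RFP+ cells of mouse embryos (n = 4), GFP+ cells of spheroids at day 5.5 (n = 38) and RFP+ cells of spheroids at day 5.5 (n = 46). The embryos are embryonic day 8.5 in the sample titles, and the protocol gives an earlier day. The paper places that earlier day in the cardiac crescent stage and day 8.5 at the looping stage. Which day holds for these libraries is not settled, so the stage in every embryo comparison is uncertain. The spheroids came from 1 embryonic stem cell line and were grown in serum-free medium with Activin A and Bmp4. Cre labelling is permanent, so RFP+ cells include descendants of Tbx1-expressing cells that no longer express it.

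Cholesterol is built from acetyl-CoA in the mevalonate pathway and then in a sterol branch that starts at squalene. When membrane sterol is low, the transcription factor SREBP-2 is cut free from its membrane anchor and turns on nearly all of these enzymes together. Sterols formed in the cell hold SREBP-2 back and also feed the nuclear receptor LXR, whose targets export cholesterol. In embryos the pathway supplies growing membranes and the sterol that is attached to Hedgehog ligands.

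The members stand at successive steps of the pathway. Hmgcs1 joins acetyl-CoA and acetoacetyl-CoA to HMG-CoA. Mvd makes isopentenyl diphosphate, Idi1 isomerises it and Fdps builds farnesyl diphosphate from both isomers. Fdft1 (squalene synthase) commits farnesyl diphosphate to sterols, Sqle oxidises squalene, Lss closes the ring to lanosterol and Cyp51 removes a methyl group from it. In GRCm38 they lie on chromosomes 13 (Hmgcs1 and Idi1), 8 (Mvd), 3 (Fdps), 14 (Fdft1), 15 (Sqle), 10 (Lss) and 5 (Cyp51).

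The 250 bases before the start of a gene were available from RefSeq (GRCm38.p6) for 5 of the 8 members: Hmgcs1, Mvd, Idi1, Lss and Cyp51. Both strands were searched for the SREBP-binding sterol element TCACNCCAC, the CCAAT box (CCAAT) and the GC box (GGGCGG). Hmgcs1 and Mvd are printed here, 5′ to 3′ on the strand of the gene, because these members had the highest ratio between RFP+ cells of spheroids and of embryos. Capitals mark the sterol element and the CCAAT boxes, and a box on the opposite strand reads ATTGG. Hmgcs1 is at chr13:119690101-119690350 (plus strand) and Mvd at chr8:122443423-122443672 (minus strand).
Hmgcs1: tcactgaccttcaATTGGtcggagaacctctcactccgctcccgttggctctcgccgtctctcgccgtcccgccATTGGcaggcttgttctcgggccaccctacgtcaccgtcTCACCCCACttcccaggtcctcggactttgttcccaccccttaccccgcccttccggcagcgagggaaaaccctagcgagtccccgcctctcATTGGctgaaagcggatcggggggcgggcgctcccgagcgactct
Mvd: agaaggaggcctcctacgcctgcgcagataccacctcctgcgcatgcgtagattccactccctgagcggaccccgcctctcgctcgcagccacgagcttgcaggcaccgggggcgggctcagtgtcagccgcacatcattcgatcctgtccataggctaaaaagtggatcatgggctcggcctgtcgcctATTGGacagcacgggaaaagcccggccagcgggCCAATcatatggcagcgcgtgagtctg
Hmgcs1 held TCACCCCAC between 137 and 129 bases before the start, and 3 CCAAT boxes that began 237, 176 and 45 bases before it. Mvd held 2 CCAAT boxes, 60 and 27 bases before the start, and no match to the sterol element. A CCAAT box was found in all 5 promoters against 33.8% of 32851 mouse promoters of the same length, and a GC box in all 5 against 32.7%. The sterol element was found in 1 of the 5 and in 1.05% of all promoters. No match overlapped another, and a match is a description of letters and not a binding site.

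Total counts were 712732 to 2525460 in embryo GFP+ libraries, 1246546 to 1479957 in embryo RFP+ libraries, 6288 to 4371849 in spheroid GFP+ libraries and 445071 to 5658882 in spheroid RFP+ libraries. Between 6189 and 8302 genes were detected in an embryo GFP+ library and between 10263 and 13052 in an embryo RFP+ library. Library C9 (spheroid GFP+, 6288 counts) is too shallow to give a level for a single gene. The ranges below leave it out, and the means and tests keep it. Hcn4 was higher on average in GFP+ than in RFP+ cells (14.9 against 0.358 CPM in embryos and 7.36 against 0.445 in spheroids). Tbx1 was absent from the embryo GFP+ libraries and had a mean of 3.94 CPM in the embryo RFP+ libraries. The summed level of 8 cardiac muscle markers was 16504 to 48985 CPM in embryo GFP+ libraries and 7.20 to 963 CPM in spheroid GFP+ libraries, so the GFP+ groups differed in their content of contractile gene transcripts. The 5 pluripotency markers summed to 57.7 to 1578 CPM (median 182) in spheroid GFP+ libraries and 6.33 to 553 CPM (median 25.7) in spheroid RFP+ libraries. The 10 endoderm markers summed to 137 to 388 CPM in spheroid GFP+ and 36.7 to 169 CPM in spheroid RFP+ libraries. In the embryo GFP+ libraries 9 of the 10 endoderm markers were at 0. Embryo wells of GFP+ cells lay in plate rows A to E (column 12) and those of RFP+ cells in rows F to H (columns 11 and 12), so in embryos an effect of the row cannot be told apart from one of the population. Within a population, embryo and spheroid wells shared no plate column, and an effect of the column cannot be told apart from one of the source. The wells were not assigned to embryos or differentiations, so p-values measure the spread between wells, which may be technical. In pools of cells, fewer expressing cells and less RNA per cell cannot be told apart.

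In embryos, Hmgcs1 was lower in RFP+ than in GFP+ cells, and the other members did not pass the test. Hmgcs1 was 148.6, 266, 824, 601 and 566 CPM in the GFP+ libraries A12, B12, C12, D12 and E12. In the RFP+ libraries F12, G11, G12 and H11 it was 169, 188, 238 and 161 CPM. In all, 4 of the 5 GFP+ libraries were above every RFP+ library, and A12 was below all of them. The means were 481 ± 272 (SD, n = 5) and 189 ± 34.6 CPM (SD, n = 4), and the log2 fold change was -1.41 (SE 0.46, edgeR adjusted p = 0.0896). The threshold for a call was an adjusted p of 0.1, at which 10.1% of 8503 genes were called in this comparison, 3.88% as lower in RFP+ cells. Of the 8 members, 1 was called. The call was lost when any one of C12, D12, E12, F12, G11, G12 or H11 was left out (log2 fold change -1.10 without C12, edgeR adjusted p = 0.172), and an exact permutation test of the mean log2 level gave p = 0.103 (two-sided, smallest possible 0.00794). The cardiac muscle markers summed to 779 to 1851 CPM in these RFP+ libraries, below every embryo GFP+ library, and their part in the embryo differences was not tested.

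Fdps went the other way. It was 66.7, 133, 182, 98.5 and 158 CPM in the GFP+ libraries and 201, 199.6, 362 and 193 CPM in the RFP+ libraries, in the same order of wells. All 4 RFP+ libraries were above all 5 GFP+ libraries, with means of 239 ± 82.2 (SD, n = 4) and 128 ± 46.1 CPM (SD, n = 5). Of all genes tested, 13.7% did not overlap in this direction. The exact permutation test gave p = 0.0159 (two-sided, unadjusted), the smallest among the members, which were tested one by one. The log2 fold change of 0.84 (SE 0.44) had an edgeR adjusted p of 0.41 over all genes. Without library G12 the log2 fold change was 0.59.

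Cyp51 and Sqle had low mean levels in RFP+ cells but overlapping groups. Cyp51 was 117, 98.6, 352, 577 and 223 CPM in the GFP+ libraries and 144, 70.3, 84.4 and 95.3 CPM in the RFP+ libraries. The levels of 3 RFP+ libraries were below every GFP+ library, and the log2 fold change was -1.52 (SE 0.56, edgeR adjusted p = 0.15). Sqle was 213, 163, 248, 13.1 and 468 CPM in the GFP+ libraries and 106, 95.6, 39.7 and 80.2 CPM in the RFP+ libraries. D12 had the lowest Sqle level of all 9 libraries and the highest Cyp51 level. The log2 fold change of Sqle was -1.52 (SE 0.75, edgeR adjusted p = 0.366). It was the only member called without D12, at -1.84 (edgeR adjusted p = 0.041).

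Lss, Mvd, Idi1 and Fdft1 had overlapping groups too. Lss had no read in the GFP+ libraries A12 and E12, where 3 counts would be 3.06 and 3.28 CPM, and stood at 55.8, 188 and 115 CPM in B12, C12 and D12. The RFP+ libraries held 25.5 to 51.3 CPM, inside the range of the GFP+ libraries. Mvd was 3.74 to 121 CPM in GFP+ and 11.9 to 34.97 CPM in RFP+ libraries, Idi1 was 2.15 to 59.5 and 15.8 to 52.5 CPM, and Fdft1 was 33.7 to 192 and 76.0 to 136 CPM. Their log2 fold changes were -1.10 (Lss), -0.93 (Mvd), -0.32 (Idi1) and -0.40 (Fdft1), each with an edgeR adjusted p of at least 0.879. The median edgeR log2 fold change of the 8 members was -1.02, beside 0.09 for all genes tested. That median depends on the measure. In mean log2(CPM + 1) the differences were 1.07 (Lss), -0.09 (Mvd), 0.13 (Idi1) and -0.17 (Fdft1), so the signs of Lss and Idi1 turned. On that scale Hmgcs1 (-1.12), Sqle (-0.89) and Cyp51 (-1.21) stayed lower and Fdps (0.93) higher. The median SD of log2(CPM + 1) over the members was 1.43 in embryo GFP+ libraries and 0.44 in embryo RFP+ libraries, and over all genes it was 2.32 and 0.50.

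**Figure D1:**
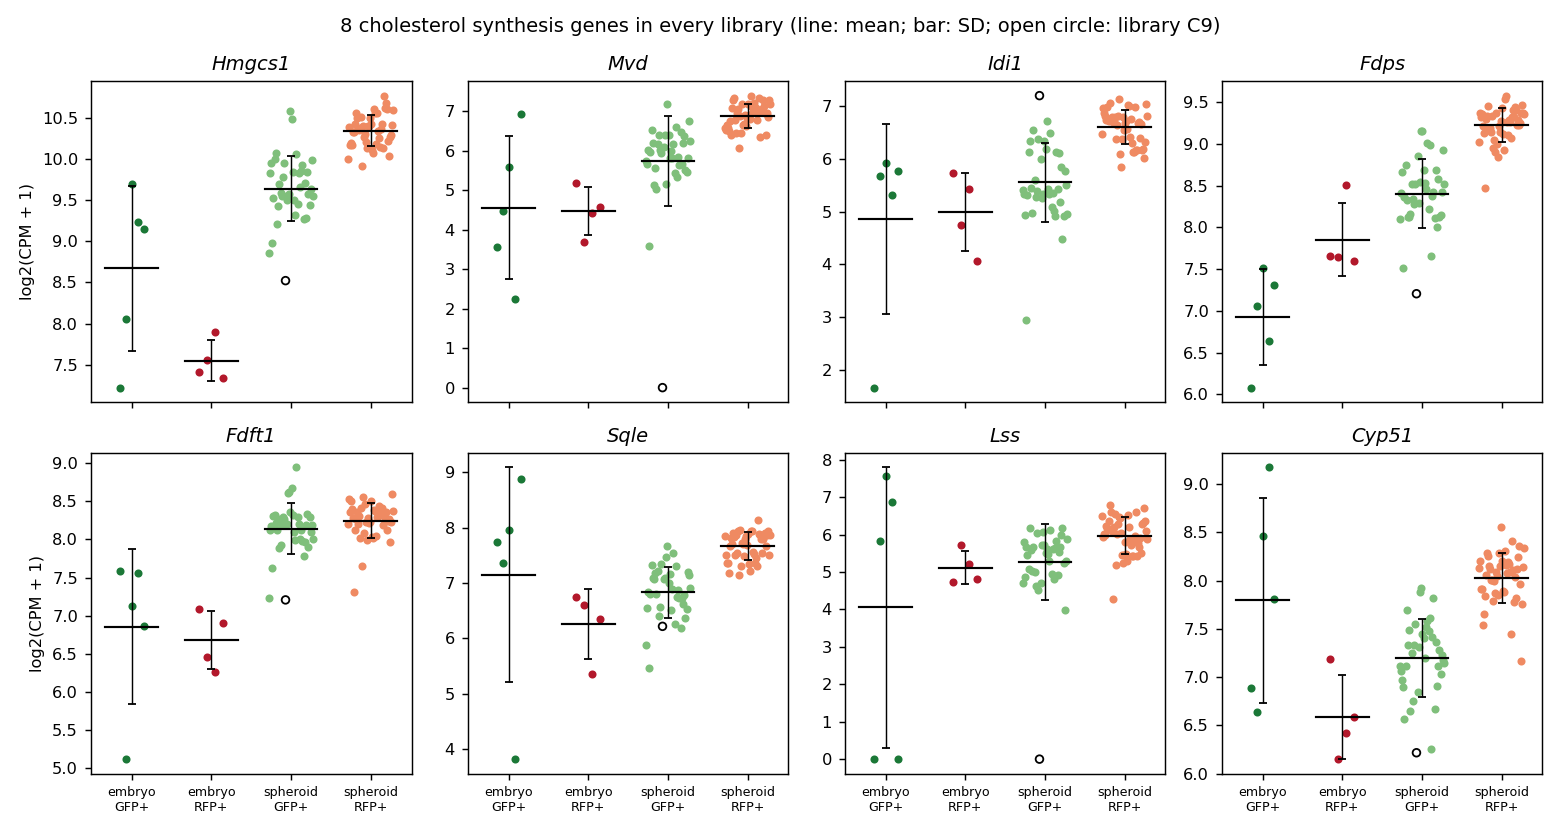
Level of each member in every library, as log2(CPM + 1) on the vertical axis, by group on the horizontal axis. Points are libraries of 10 cells, lines are means, bars are SD, and the open circle is library C9; the embryo GFP+ points spread most, and Fdps alone has its 4 embryo RFP+ points above all 5 embryo GFP+ points.

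In spheroids, 7 of the 8 members were higher in RFP+ than in GFP+ cells, and Fdft1 was not called. Of 9940 genes tested, 77.9% were called in this comparison, 37.8% as higher in RFP+ cells. The median log2 fold change was 0.74 for the members and -0.02 for all genes. Unlike in embryos, the 8 values were in 1 direction, and 7 of them lay between 0.52 and 0.96.

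Hmgcs1 ranged from 461 to 1524 CPM (median 795) in 37 spheroid GFP+ libraries and from 967 to 1741 CPM (median 1313) in 46 RFP+ libraries. Among them, 28 GFP+ libraries were below the lowest RFP+ library, and 6 RFP+ libraries were above the highest GFP+ library. The log2 fold change was 0.62 (SE 0.06, edgeR adjusted p = 6.19e-17). Mvd rose from a median of 61.5 CPM (11.1 to 144) to 121 CPM (65.4 to 167), a log2 fold change of 0.89 (SE 0.09). Idi1, the member with the largest change, rose from a median of 41.6 CPM (6.64 to 104) to 103 CPM (56.4 to 141), a log2 fold change of 0.96 (SE 0.10).

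Fdps had the smallest adjusted p of the 8 (log2 fold change 0.74, SE 0.06, edgeR adjusted p = 1.13e-20). It ranged from 182 to 569 CPM (median 342) in GFP+ and from 354 to 763 CPM (median 616) in RFP+ libraries, and 32 of 46 RFP+ libraries exceeded the highest GFP+ library. In the sterol branch, Sqle (116 CPM, 43.2 to 202, against 209 CPM, 141 to 281) and Cyp51 (151 CPM, 75.4 to 242, against 270.4 CPM, 143 to 376) each rose by 0.75 (SE 0.07) on the log2 scale. For both, no GFP+ library reached the RFP+ median. Lss rose least among the called members, by 0.52 (SE 0.11), and its medians were 45.2 CPM (14.9 to 71.4) and 63.7 CPM (18.4 to 111).

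Fdft1 ranged from 149 to 493 CPM (median 291) in GFP+ libraries and from 158 to 385 CPM (median 311) in RFP+ libraries. The groups lay over each other, and the log2 fold change was 0.04 (SE 0.05, edgeR adjusted p = 0.491). Fdft1 shares 774 exon bases with Ctsb, a lysosomal protease gene on the opposite strand, and whether counting used strand is not given in the sources used here. Ctsb was 805 ± 200.0 CPM (SD, n = 38) in GFP+ and 171 ± 61.1 CPM (SD, n = 46) in RFP+ cells, a log2 fold change of -2.29. Reads from the shared bases cannot be assigned to either gene without strand, and the part of Ctsb in the Fdft1 value was not tested. Cyp51 shares 166 exon bases with Akap9, which had means of 142 and 130.2 CPM, and Lss shares 381 with 4930483K19Rik, which was at or near 0 in all 4 groups.

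The permutation test with 100000 resamples gave the smallest p it allows, 1e-05, for the 7 called members and 0.0855 for Fdft1. Wells of RFP+ cells lay in plate columns 1 to 6 and wells of GFP+ cells in columns 7 to 11, and an effect of the column cannot be told apart from one of the population. In the neighbouring columns 6 and 7 alone, with 8 wells in each, 6 members were called, beside 5205 of 9900 genes (2420 of them higher). That choice was made after seeing the data. In these columns Idi1 had a log2 fold change of 1.53. There Lss was 0.26 (edgeR adjusted p = 0.47) and Fdft1 was 0.02 (edgeR adjusted p = 0.853). The pluripotency and endoderm marker sums given above were higher at the median in GFP+ than in RFP+ libraries, and their part in these differences was not tested.

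Along the pathway, 10 of 11 further enzymes were called higher in spheroid RFP+ cells, and none was called lower. Over all genes tested in spheroids, 37.8% were called higher and 40.1% lower. The 10 enzymes included Acat2, which makes acetoacetyl-CoA (log2 fold change 1.13, SE 0.07). Later steps also rose, with Dhcr7, the final sterol reductase of one branch, at 0.95 (SE 0.15), Tm7sf2, another sterol reductase, at 0.92 (SE 0.11) and Nsdhl, a sterol dehydrogenase, at 0.91 (SE 0.08). Sc5d, the lathosterol desaturase, was not called at 0.01 (SE 0.06). The median over the 11 was 0.76. With the members, 17 of 19 enzymes were called higher, and Fdft1 and Sc5d were the exceptions. In embryos, 2 of the 18 enzymes tested were called, both lower in RFP+ cells: Hmgcs1 and the methyl sterol oxidase Msmo1 (-1.68, edgeR adjusted p = 0.07). That count is near the 10.1% called over all genes in the embryo comparison. Msmo1 stayed called only without E12 or without G12.

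**Figure D2:**
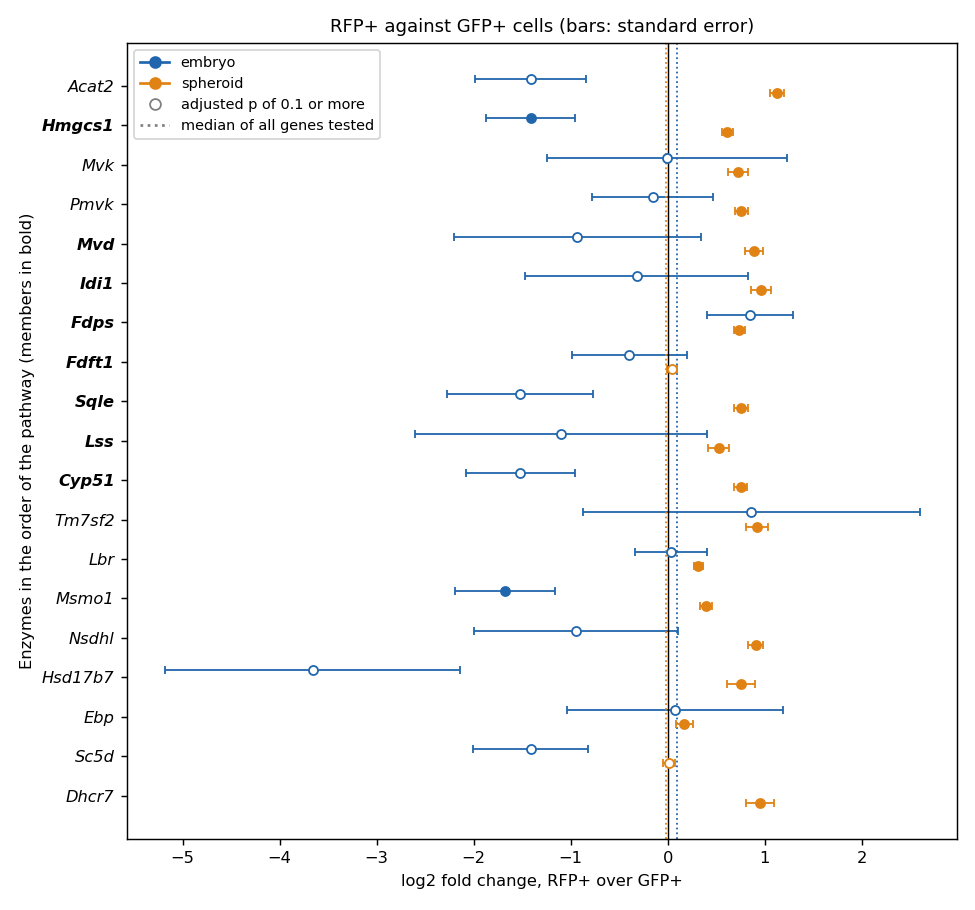
Log2 fold change of RFP+ over GFP+ cells (horizontal axis, bars are SE) for 19 enzymes in the order of the pathway (vertical axis), in embryos and in spheroids. Filled points have an adjusted p under 0.1 and dotted lines mark the median of all genes; the spheroid points are all above 0, and 14 of the 18 embryo points are below 0.

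Of 10 uptake and transfer genes 3 were higher and 7 were lower in spheroid RFP+ cells, beside 37.8% of all genes called higher and 40.1% called lower, among the latter Npc1, which moves cholesterol out of lysosomes (-0.81), the lipoprotein receptor gene Vldlr (-0.73) and the oxysterol-binding protein gene Osbp (-0.63). Of 6 tested genes of export, storage and LXR response, 5 were lower in RFP+ cells and none was higher. Abcg1 and Abca1, transporters that export cholesterol, were at -3.27 (SE 0.17) and -1.49 (SE 0.22). The lipoprotein gene Apoe was at -1.69 (SE 0.10) and Soat1, which esterifies cholesterol for storage, at -0.94 (SE 0.09). Abcg1 stood at 59.7 ± 20.8 CPM (SD, n = 38) in GFP+ and 6.36 ± 4.39 CPM (SD, n = 46) in RFP+ cells.

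Of 12 genes of sterol sensing and SREBP processing 4 were higher, 4 were lower and 4 were not called. Both directions were near the share over all genes in this comparison, 37.8% called higher and 40.1% called lower, and the counts of the lists that follow stand beside the same shares. The gene of SREBP-2 itself, Srebf2, was not called (0.19, SE 0.12, edgeR adjusted p = 0.141), nor was Srebf1 (-0.03, edgeR adjusted p = 0.988). Insig1, an SREBP target that retains the SREBP escort, was at 0.28 (SE 0.09), the escort gene Scap at -0.61, Insig2 at -0.64, and the SREBP protease genes Mbtps2 and Mbtps1 at -0.84 and 0.38. Among mevalonate side branches 3 of 10 rose and 2 fell, with the ubiquinone genes Coq2 (0.94), Pdss1 (0.83) and Pdss2 (0.46) higher and the prenyltransferase subunit gene Pggt1b (-0.74) lower. Of 12 fatty acid synthesis genes 9 were higher, including the desaturases Fads2 (1.29) and Scd2 (1.08) and the elongase Elovl6 (1.07), and Me1, an NADPH source, was lower (-1.59).

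The RFP against GFP difference itself differed between spheroids and embryos for Hmgcs1 and Cyp51. The spheroid value minus the embryo value was set against the standard errors of both, with 7 degrees of freedom, and called 5.26% of 8182 genes, 2.1% with a higher value in spheroids. The difference was 2.03 (SE 0.46, adjusted p over all genes 0.0712) for Hmgcs1 and 2.27 (SE 0.56, adjusted p over all genes 0.0968) for Cyp51, with log2 fold changes from edgeR. Sqle had as large a difference, 2.28 (SE 0.76), without passing (adjusted p over all genes 0.237, log2 fold changes from edgeR). Values for Mvd (1.82), Lss (1.62), Idi1 (1.28), Fdft1 (0.44) and Fdps (-0.11) did not pass. Fdps was the member whose estimates were closest in both sources, 0.84 in embryos and 0.74 in spheroids. Leaving out any one of C12, D12, E12 or the 4 embryo RFP+ libraries removed the calls of Hmgcs1 and Cyp51, which then stood at 1.72 to 2.14 and 1.85 to 2.50.

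**Figure D3:**
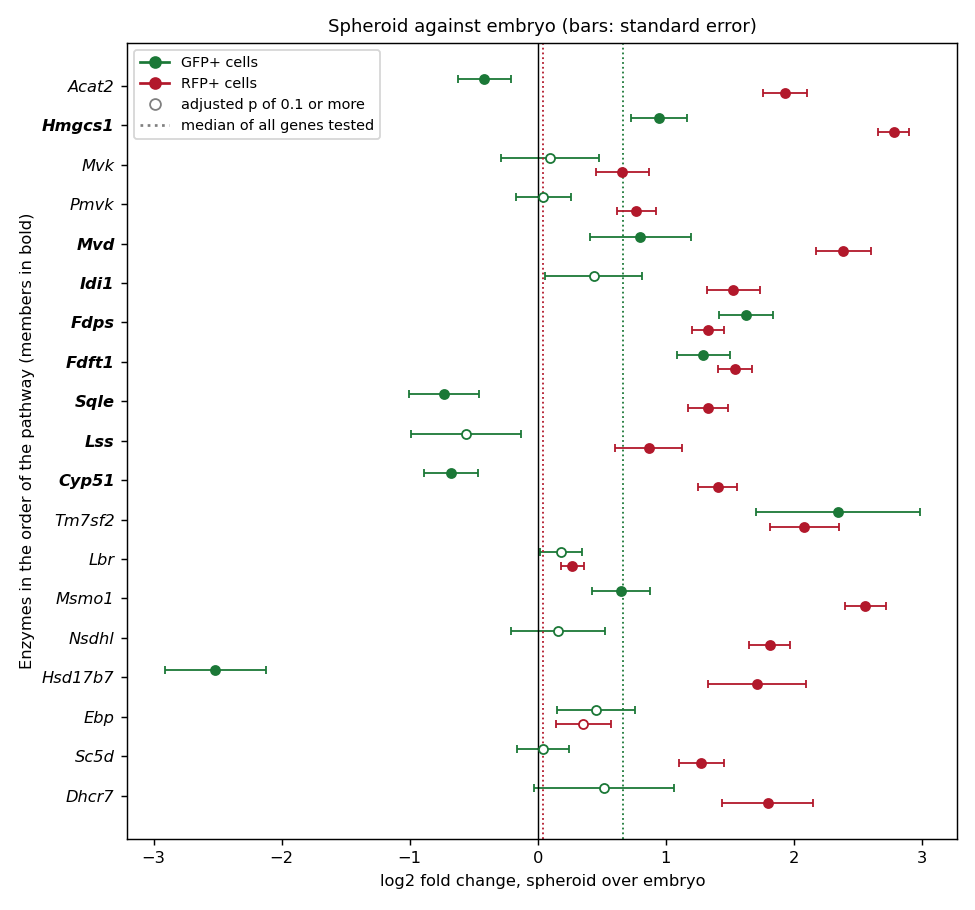
Log2 fold change of spheroid over embryo cells (horizontal axis, bars are SE) for the same 19 enzymes (vertical axis), in GFP+ and in RFP+ cells. Filled points have an adjusted p under 0.1 and dotted lines mark the median of all genes, which is 0.67 for GFP+ cells; the RFP+ points are all above 0, up to 2.78 for Hmgcs1.

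Between RFP+ cells of spheroids and of embryos, all 8 members were higher in spheroids. These libraries are the same as those in the comparisons above. The RFP+ groups also differed in their marker sums. The 8 cardiac muscle markers summed to 779 to 1851 CPM in embryo RFP+ and 9.27 to 122 CPM in spheroid RFP+ libraries. The 5 pluripotency markers summed to at most 2.91 CPM in embryo RFP+ libraries, below every spheroid RFP+ library. The 5 endothelial markers summed to 18.6 to 298 CPM in embryo and 3.42 to 114 CPM in spheroid libraries, and the 10 endoderm markers to 5.73 to 211 and 36.7 to 169 CPM. The 5 blood markers reached 1153 CPM in 1 embryo RFP+ library, with a median of 0.703 CPM in that group. Their part in the differences was not tested. Of 11147 genes tested, 42.6% were called in this comparison, 22.5% as higher in spheroids, and the median log2 fold change was 1.47 for the members and 0.04 for all genes. Hmgcs1 rose from 161 to 238 CPM in 4 embryo libraries to 967 to 1741 CPM in 46 spheroid libraries, a 6.92-fold ratio of means (log2 fold change 2.78, SE 0.12, edgeR adjusted p = 2.4e-28). Mvd rose 5.29-fold in mean CPM (log2 fold change 2.39, SE 0.22). Fdft1 was at 1.54 (SE 0.13), Idi1 at 1.53 (SE 0.21), Cyp51 at 1.41 (SE 0.15), Sqle and Fdps at 1.33 (SE 0.16 and 0.12), and Lss at 0.87 (SE 0.26, edgeR adjusted p = 0.00681). For Hmgcs1, Mvd, Idi1, Fdft1 and Sqle every spheroid library was above every embryo library, which held in this direction for 2.1% of all genes. Fdps and Cyp51 each had 45 of 46 spheroid libraries above all embryo libraries, and Lss had 34. As many as 10 of the 11 further enzymes rose as well (median 1.71), with Msmo1 at 2.56, and Ebp, the sterol isomerase, was not called (0.36, edgeR adjusted p = 0.203). Srebf2 was at 1.12 (SE 0.27) and Insig1 at 0.98 (SE 0.28), both higher in spheroids.

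In GFP+ cells the members did not all move in the same direction between embryos and spheroids. Fdps (1.63, SE 0.21), Fdft1 (1.29, SE 0.21), Hmgcs1 (0.95, SE 0.22) and Mvd (0.80, SE 0.39, edgeR adjusted p = 0.0722) were higher in spheroids than in embryos. Sqle (-0.73, SE 0.27, edgeR adjusted p = 0.0183) and Cyp51 (-0.68, SE 0.21, edgeR adjusted p = 0.00506) were lower, and Idi1 (0.44) and Lss (-0.56) were not called. These fits assume the same spread in embryo and spheroid wells. In mean log2(CPM + 1) Sqle differed by only -0.32, with a permutation p of 0.332 (two-sided, unadjusted). The same test gave p = 0.0217 for Cyp51, 0.048 for Mvd, 0.00125 for Hmgcs1, 1e-05 for Fdps and 2e-05 for Fdft1. Of 11822 genes tested, 68% were called in this comparison, 48.3% as higher and 19.7% as lower in spheroids. The median log2 fold change was 0.62 for the members and 0.67 for all genes, so in this fit the members' median stood near that of the whole table. The gap depended on the setting. It was 0.09 against 0.86 with DESeq2, 0.58 against 1.04 without a filter, and 0.70 for both without C12. With TMM 5710 genes were called higher and 2326 lower, whereas the size factors of DESeq2 gave 4687 and 3473. Under the latter the medians were 0.09 and 0.22, Idi1 was at -0.061, Mvd was not called and Lss was called lower at -1.07. The sign for Lss differed between measures, and 2 embryo libraries had no read. The mean of log2(CPM + 1) was higher in spheroids by 1.21. With TMM in edgeR, the log2 fold change of Lss was 0.12 when C12 was left out. Fdps and Fdft1 each had 36 of 38 spheroid libraries above every embryo library, where the shallow library C9 is counted among the 38 and not among the 36. By contrast, all Cyp51 levels of the embryo libraries were above the lowest spheroid level and 2 exceeded the highest. Single embryo libraries decided 3 of these calls. Mvd was not called without A12 (0.52), B12 (0.62) or D12 (0.48), Sqle without E12 (-0.31) or Cyp51 without D12 (-0.23), while Lss was called lower without A12 or E12 (-0.94 for each).

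Ordered by mean CPM, Hmgcs1, Mvd, Idi1 and Fdft1 rose from embryo RFP+ to embryo GFP+, spheroid GFP+ and spheroid RFP+ cells. Fdps had its first 2 groups in the opposite order, and Sqle, Lss and Cyp51 were highest in embryo GFP+ cells. The embryo GFP+ group overlapped each of its neighbours in these orders, except for Fdps against embryo RFP+ cells. Where embryo RFP+ and spheroid GFP+ cells were neighbours, for Fdps, Sqle, Lss and Cyp51, their ranges overlapped too. Summed over the 8 members, the level was 803 ± 94.7 CPM (SD, n = 4) in embryo RFP+, 1390 ± 573 CPM (SD, n = 5) in embryo GFP+, 1891 ± 432 CPM (SD, n = 38) in spheroid GFP+ and 2973 ± 320.5 CPM (SD, n = 46) in spheroid RFP+ cells. In this sum 7 of 37 spheroid GFP+ libraries were above the lowest spheroid RFP+ library. Levels per kilobase used the union of all annotated exons of a gene (4208 bases for Fdps and 10787 for Lss), so their order depends on the annotation. On this scale Hmgcs1 had the highest mean level in spheroid RFP+ cells (285 CPM per kb). Fdps (144) and Fdft1 (72.5) followed, and Lss was the lowest (6.01). In embryo RFP+ cells Fdps was first (56.8 CPM per kb) and Hmgcs1 next (41.1). In embryo GFP+ cells Hmgcs1 (105 CPM per kb) was followed by Cyp51 (62.0) and Sqle (39.9).

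The members also varied together among spheroid libraries of the same population. Over 76 libraries, with 7 pairs of near-identical wells summed and C9 left out, the mean Pearson's r between member pairs was 0.399, and the median over all gene pairs was 0.00507. These points share library preparation and depth, and the values are a description. Fdps followed the mean of the other 7 members most closely (r = 0.771), then Hmgcs1 (0.745) and Sqle (0.693), while Lss did not (0.179). Within GFP+ libraries the mean was 0.428 (n = 37), and within RFP+ libraries it was 0.319 (n = 39), a split made after seeing the data. Fdft1, which did not differ between populations, still followed the others within each (0.638 in GFP+ and 0.526 in RFP+ libraries). In 7 plate rows, the RFP+ wells of columns 3 and 4 had profiles with r of 0.971 to 0.992. Those pairs differed by more than sampling noise (chi-square over its degrees of freedom 1.33 to 2.29, against at least 3.92 for other wells of the row). That does not show that they held separate cells, and the tests and library counts kept them apart. With the pairs summed, 7 members were called between spheroid populations (7582 of 9860 genes). Between the RFP+ sources all 8 were called (4654 of 11062 genes).

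**Figure D4:**
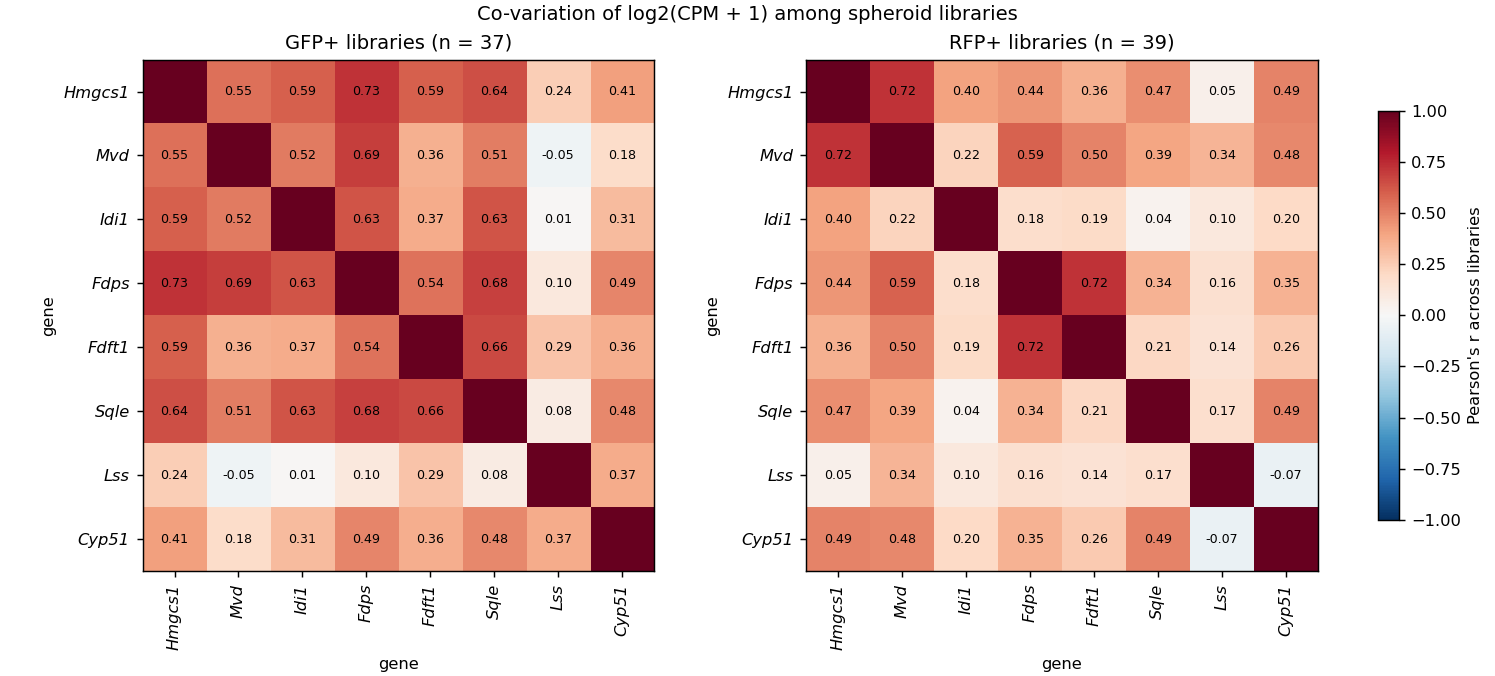
Pearson's r of log2(CPM + 1) between each pair of members across spheroid libraries, in GFP+ and in RFP+ cells; both axes list the genes in pathway order and colour gives r from -1 to 1. Fdps and Hmgcs1 are at 0.73 in GFP+ libraries, and the row of Lss is the palest in both panels.

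The genes whose levels across these 76 libraries were most like the mean of the members were sought among 8775 others with a mean of at least 10 CPM. Msmo1 came first (r = 0.803), ahead of the tubulin gene Tuba1a (0.705), Acat2 (0.688), the axon guidance gene Dpysl2 (0.682), Nsdhl (0.640), Idh1 (0.631, a cytosolic NADPH source), the nucleosome-binding Hmgn2 (0.628), Acly (0.613, which makes cytosolic acetyl-CoA), Tmem132c (0.605) and the chromatin protein gene Hmgb1 (0.600). Of these 10 genes 4 belong to the listed lipid genes, of which 57 were measured here. Over all 8775 genes the median r was 0.0216, with 5th and 95th percentiles of -0.24 and 0.342. Dpysl2 and Hmgn2 were like the members mainly in GFP+ libraries (0.799 and 0.725, against 0.249 and 0.227 in RFP+ libraries). Msmo1 (0.837 and 0.697) and Acat2 (0.720 and 0.590) were like them in both populations.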

How the data were processed

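RNA from pools of 10 sorted mouse cells was sequenced in 93 libraries. For these files the authors ran Trimmomatic 0.36 with a quality cutoff of 35 and a shortest read of 36, HISAT2 2.0.4 against mm10, and featureCounts 1.5.2. The deposited values are whole-number counts per gene symbol, without normalization or molecular identifiers, so a limit from a count of 0 (3 counts) covers counting error only. The gene annotation and strand setting of the counting are not given in the sources used here. Groups were taken from the sample titles.

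Counts were tested in R 4.3.3 with edgeR 4.0.16 (TMM, filterByExpr with minimum count 10, minimum total 15 and minimum proportion 0.7, quasi-likelihood F-test), with Benjamini-Hochberg adjustment over all genes tested and a threshold of 0.1. Positive values are higher in RFP+ cells or in spheroids. The standard error is the size of the log2 fold change over the square root of F. CPM are edgeR's counts per 1e6 reads with TMM. Single genes were also compared on log2(CPM + 1) by two-sided permutation tests, exact in embryos and with 100000 resamples otherwise. Permutation p-values were not adjusted for the number of members. The test across sources used 7 degrees of freedom. Co-variation used deviations from the population mean. Alternatives were DESeq2 1.42.0, its size factors, total counts, no filter, a threshold of 0.05, plate row as a covariate, summed near-identical wells, no library under 100000 counts, one fit over 4 groups and each embryo library left out. The edgeR fits and the test across sources were run on simulated counts in which both groups of a comparison shared the same spread. That simulation does not cover groups of unequal spread, such as those of the embryo. Gene positions come from GENCODE M21 (GRCm38, the assembly of mm10), and promoters from RefSeq.

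The named genes are the members, Insig1, Srebf1 and Srebf2, up to 4 called genes per list with the largest spheroid change, the 10 genes most like the members, and Hcn4 and Tbx1. Some genes that this rule or a list would hold are not reported here and enter no list count. Sc5d, Ebp, Msmo1, Ctsb, Akap9 and 4930483K19Rik were named after their values were seen. The members and lists were chosen with earlier results of these data known.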

Additional observations from a re-analysis of the deposited data

Results flagged for a closer look

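Fdps in the embryo RFP+ library G12 stood apart from the rest of its group, at 362 CPM against 201 CPM in the nearest library, a gap of 0.955 of the group's range. It was the only one of 16 groups of 4 or 5 libraries to do so, and chance alone gives about 1 in 20.

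The enzymes listed here had an RFP against GFP difference that was higher in spheroids than in embryos by the test of the difference itself (log2 fold changes from edgeR): Hmgcs1 by 2.03, Cyp51 by 2.27, Acat2 by 2.54 (adjusted p = 0.0694) and Msmo1 by 2.07 (adjusted p = 0.0988). Acat2 and Msmo1 are among the 11 further enzymes. Acat2 kept its call when any one embryo GFP+ library other than D12 was left out, and Msmo1 only without E12. Leaving out any one embryo RFP+ library removed both calls.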

How the results depend on the processing

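All 8 members were called higher in spheroid than in embryo RFP+ cells under each alternative run. In the spheroid comparison 7 of 8 were called under each but the restriction to plate columns 6 and 7. That restriction called 6 members and 5205 of 9900 genes, with Lss at 0.26. In embryos, 0 members were called at a threshold of 0.05 and 2 with DESeq2, which added Cyp51 (-1.66). There 858 of 8503 genes became 670 at the threshold of 0.05, 1945 of 10784 with DESeq2 and 2000 of 15111 without a filter. Leaving out each library gave 613 to 1044 genes and 0 to 2 members. The spheroid comparison called 13109 of 21827 genes without a filter, in place of 7747 of 9940. One fit over the 4 groups, which assumes one spread, called 6889 of 12655 genes and 6 members for the difference between sources. The main test called 430 of 8182 genes and 2 members. Leaving out each embryo library gave 72 to 556 genes and 0 to 2 members. In GFP+ cells, Idi1 between spheroid and embryo turned to -0.062 with DESeq2 and -0.061 with its size factors in edgeR. When single libraries were left out, the sign turned for Lss in that comparison (-0.94 to 0.12), for Mvd in embryos (-1.24 to 0.050) and for Fdps in the difference between sources (-0.29 to 0.14). Genes called between sources ran from 8488 to 8608 in GFP+ cells (4 to 6 members) and from 4076 to 4426 in RFP+ cells (8 members). The cause of these changes was not tested. No paired analysis was possible because the wells of the groups carry no shared replicate numbers. The embryo comparison is limited by 5 and 4 libraries of 10 cells.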
